A study of Mus musculus with 7 samples.

Results

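The regions described here are the H3K9me3 peaks of Setdb1 KO fibroblasts that lay far from any WT peak. They were chosen by position alone: a peak on chromosomes 1 to 19 of the KO list belonged if no peak of the WT list lay within 10 kb of it, measured between the nearest ends. Of the 3668 autosomal KO peaks, 1737 did so, 47.4%. Here they are called distant KO peaks. Of the other autosomal KO peaks, 1375 lay within 10 kb of a WT peak without touching it and 556 overlapped or touched one. The same rule turned around, WT peaks with no KO peak within 10 kb, took 18776 of 21957 autosomal WT peaks, 85.5%. Because distance to WT peaks chose the regions, neither their number nor their distance is a finding, and no test was made of either.

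The series holds 7 samples from wild-type C57BL/6 fetal forebrain and from Setdb1 cKO iMEFs, and 2 of them were used here: the H3K9me3 libraries of the iMEFs, each with 1 list of peaks. Setdb1 cKO iMEFs are immortalised mouse embryonic fibroblasts in which 4-hydroxytamoxifen (4OHT) leads to deletion of Setdb1. The WT group had the same conditional genotype and no treatment, and the KO group received 4OHT for 4 days and was harvested on day 7. According to the methods, the line was recloned from single cells, so it stands for 1 genetic background and 1 derivation. The peak lists hold no measure of the deletion itself and no measure of gene expression, so neither the KO label nor the fibroblast identity could be checked in them.

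H3K9me3, trimethylation of histone H3 at lysine 9, is a mark of silent heterochromatin. Setdb1 is one of the enzymes that place it, and it is best known for silencing endogenous retroviruses, to which KRAB zinc-finger proteins and Trim28 bring it. The Suv39h enzymes place the same mark at the satellite repeats next to centromeres. A peak is a stretch in which more fragments were counted than the peak caller took as local background.

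The sequences of the highest-scoring distant KO peaks are shown first because their base composition differed from that of most other distant KO peaks. Runs of alternating A and T of at least 20 bp were found in only 62 of the 1737, 3.57%. Of these 62, 46 were among the 100 highest-scoring distant KO peaks. The score is −log10 of the q-value of a peak. All sequences are the mm9 reference on its plus strand, 5′ to 3′. Capitals mark stretches of at least 10 bp in which A and T alternate, a pattern that reads the same on both strands. The lists do not state whether a start counts from 0 or from 1, so each sequence may begin 1 bp early or late.
chr3:120624511-120624575: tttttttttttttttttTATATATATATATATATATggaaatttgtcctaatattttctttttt
chr19:17648800-17648873: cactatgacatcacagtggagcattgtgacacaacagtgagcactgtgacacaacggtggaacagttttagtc
chr3:82422720-82422790: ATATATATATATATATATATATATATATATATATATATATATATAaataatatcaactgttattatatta
chr14:91369361-91369510: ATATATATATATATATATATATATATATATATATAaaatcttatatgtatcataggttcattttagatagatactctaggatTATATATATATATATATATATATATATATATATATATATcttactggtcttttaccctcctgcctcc
chr10:85032981-85033060: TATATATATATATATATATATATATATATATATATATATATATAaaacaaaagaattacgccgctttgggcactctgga

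The peak on chr3:120624511-120624575 had the highest score, 17.3, with a pileup of 24 fragments over a local background of 1.36. It lay 234 kb from the nearest protein-coding gene, Rwdd3, and 93.4 kb from the nearest WT peak, and 19 of its 64 bases were in an alternating stretch beside a run of T. The peak on chr19:17648800-17648873 scored 17.1, also with a pileup of 24, and lay in an intron of Pcsk5, a proprotein convertase that cleaves precursor proteins. It held no alternating stretch. Alternating stretches made up 45 of 70 bases of the peak on chr3:82422720-82422790, 74 of 149 bases, in several stretches, on chr14:91369361-91369510 and 44 of 79 bases on chr10:85032981-85033060. Their pileups were 64, 21 and 28 fragments over backgrounds of 14.7, 1.07 and 2.79, and their scores were 16.3, 15.9 and 14.4. The peak on chromosome 10 lay in an intron of Btbd11, the one on chromosome 3 lay 70.7 kb from Npy2r, a neuropeptide Y receptor gene, and the one on chromosome 14 lay 1071 kb from the nearest protein-coding gene. None of these 5 peaks shared a stretch of 31 bases with any WT peak.

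A further set of 5 shows the distant KO peaks that shared most of their 31-base words (31-mers) with other distant KO peaks or with WT peaks, since these words sort the regions into families. Ties were broken by score.
chr15:23425127-23425193: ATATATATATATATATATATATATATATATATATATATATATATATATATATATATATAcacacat
chr10:108829943-108830007: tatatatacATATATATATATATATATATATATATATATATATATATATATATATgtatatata
chr8:6932852-6932917: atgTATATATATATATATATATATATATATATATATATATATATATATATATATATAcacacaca
chr2:89315233-89315316: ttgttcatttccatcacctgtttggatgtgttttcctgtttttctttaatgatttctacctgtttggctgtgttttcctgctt
chr13:89131325-89131389: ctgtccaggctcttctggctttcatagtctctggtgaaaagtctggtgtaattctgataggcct

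The first 3 of these were alternating A and T for 59 of 66, 46 of 64 and 54 of 65 bases, and they shared no 31-mer with a WT peak. The other 2 held no such stretch, and every 31-mer of each was found in a WT peak elsewhere. The median 31-mer of the peak on chr2:89315233-89315316 occurred 1246 times in the genome, and that of the peak on chr13:89131325-89131389, in an intron of Edil3, occurred 5842 times. So 2 kinds of repeated sequence stood among the distant KO peaks, one shared with WT peaks and one almost not.

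Most distant KO peaks were of neither kind. The following 2 are the first in genome order of the 20 distant KO peaks that had the lowest pileup, the lowest background, single-copy sequence and the median width of 77 bp, a choice made after the values were seen.
chr1:145858965-145859042: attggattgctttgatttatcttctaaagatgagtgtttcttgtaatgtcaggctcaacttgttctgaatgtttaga
chr2:8504093-8504170: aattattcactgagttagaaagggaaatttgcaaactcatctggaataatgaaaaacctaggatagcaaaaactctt

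Both had a pileup of 9 fragments, a fold enrichment of 4.84 and a score of 2.96. They lay 7.67 kb from Rgs2, a regulator of G-protein signalling, and 1275 kb from Gata3, which encodes a transcription factor.

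Distant KO peaks were low and narrow. Their pileup had a median of 9 and a range of 9 to 120 fragments, and 1093 of them, 62.9% (Wilson 95% interval 60.6 to 65.2, counting error only), had a pileup of 9, the lowest called. A further 391 had a pileup of 10, 116 had 11, 43 had 12 and 94 had 13 or more. Of the KO peaks within 10 kb of a WT peak 38.9% (36.4 to 41.5) had the lowest pileup, and of those overlapping one 15.8% (13 to 19.1). The median width of distant KO peaks was 77 bp, against 88 bp within 10 kb and 140 bp where the lists overlapped. The lower quartile of distant KO peaks was 66 bp, close to the narrowest autosomal KO peak, 64 bp. Of the distant WT peaks, those over 10 kb from any KO peak, 46.0% (45.3 to 46.7) had the lowest pileup of 9, against 28.9% (27.2 to 30.6) of WT peaks within 10 kb of a KO peak and 10.1% (7.81 to 13.1) of WT peaks overlapping one. Their median widths were 132, 156 and 238 bp, and the narrowest autosomal WT peak was 69 bp. Distant peaks were thus the lowest and narrowest class in both lists.

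The local background, recovered from pileup and fold enrichment, was at the lowest value in the KO list, 1.07 fragments, in 1224 distant KO peaks, 70.5% (68.3 to 72.6). That share was 39.1% (36.5 to 41.7) among KO peaks within 10 kb and 14.2% (11.6 to 17.4) among overlapping ones. A background over 3 fragments was found at 48 distant KO peaks, 2.76% (2.09 to 3.64), and at 51.8% (47.6 to 55.9) of overlapping KO peaks. The distant KO peak with the highest pileup, 120 fragments on chr3:56379391-56379673, also had the highest background among them, 53.1, and a fold enrichment of only 2.24. It was singled out after its values were seen.

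**Figure D1:**
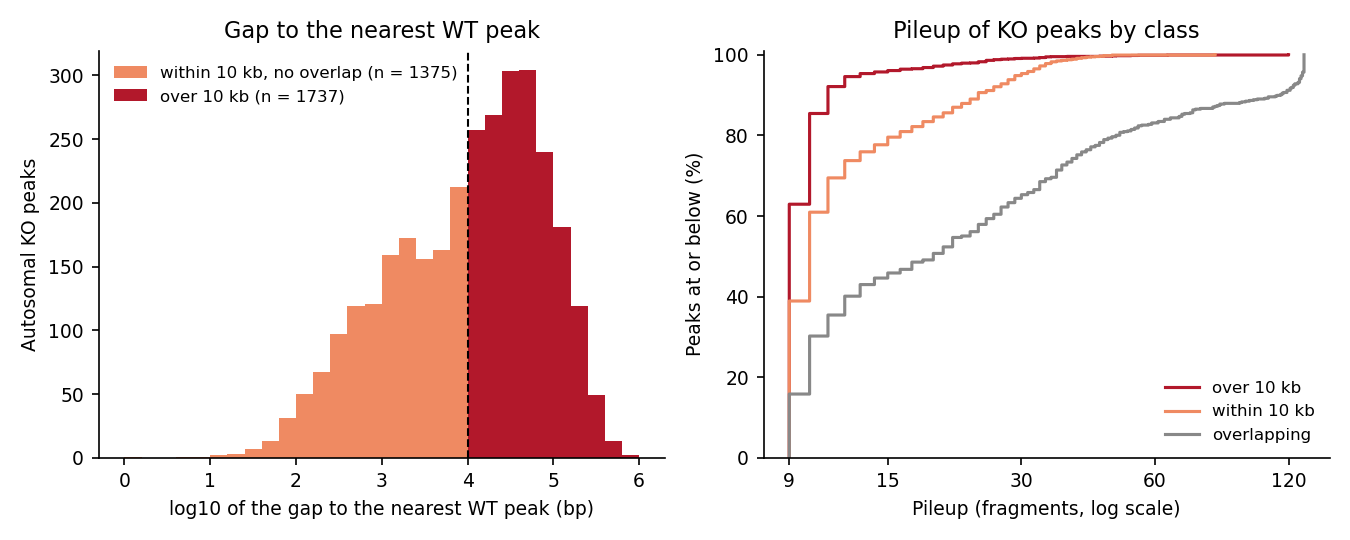
Left, number of autosomal KO peaks by the gap to the nearest WT peak (log10 of bp, peaks with a gap of 0 left out), with the limit of 10 kb dashed. Right, cumulative share (%) of KO peaks by pileup (fragments, log scale) for the 3 classes of KO peak. The numbers do not dip at the limit, and 62.9% of distant KO peaks sit at the lowest pileup, 9.

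No gap separated the distant KO peaks from those nearer to WT peaks. The 3 distant KO peaks closest to the limit lay 10003, 10003 and 10035 bp from a WT peak, and the 3 KO peaks that just missed it lay 9978, 9974 and 9953 bp away. All 6 had a pileup of 9, with scores of 2.51, 2.45 and 2.51 inside and 2.96, 2.65 and 2.37 outside. The median gap of distant KO peaks was 41831 bp. The 3 farthest lay 805 kb (chr11:54096722-54096845), 641 kb (chr9:30168586-30168671) and 620 kb (chr3:118063526-118063648) from a WT peak, with pileups of 11, 9 and 10. Their nearest protein-coding genes were Il3, a cytokine gene 15.9 kb away, Snx19, 66.0 kb away, and Dpyd, 201 kb away. Every 31-mer of the third was found in some WT peak, although no WT peak was near.

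Distant KO peaks had single-copy sequence more often than WT peaks and other KO peaks. Of the 1737, 1312 had single-copy sequence, 75.5% (73.5 to 77.5), meaning that the median 31-mer of the peak occurred once in the genome, either strand. Of KO peaks within 10 kb 46.2% (43.6 to 48.8) were single-copy, of overlapping KO peaks 30.4% (26.7 to 34.3) and of distant WT peaks 29.7% (29 to 30.3). The intervals of these shares do not overlap that of the distant KO peaks. The single-copy share of all autosomal windows was not computed, so whether 75.5% differs from that of the genome is not known. More than 1000 copies were counted for 7.71% (6.55 to 9.06) of distant KO peaks and for 37.2% (36.5 to 37.9) of distant WT peaks. Reads that fitted several places had been put at 1 of them at random, so the place of a multi-copy peak is less certain than that of a single-copy one.

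**Figure D2:**
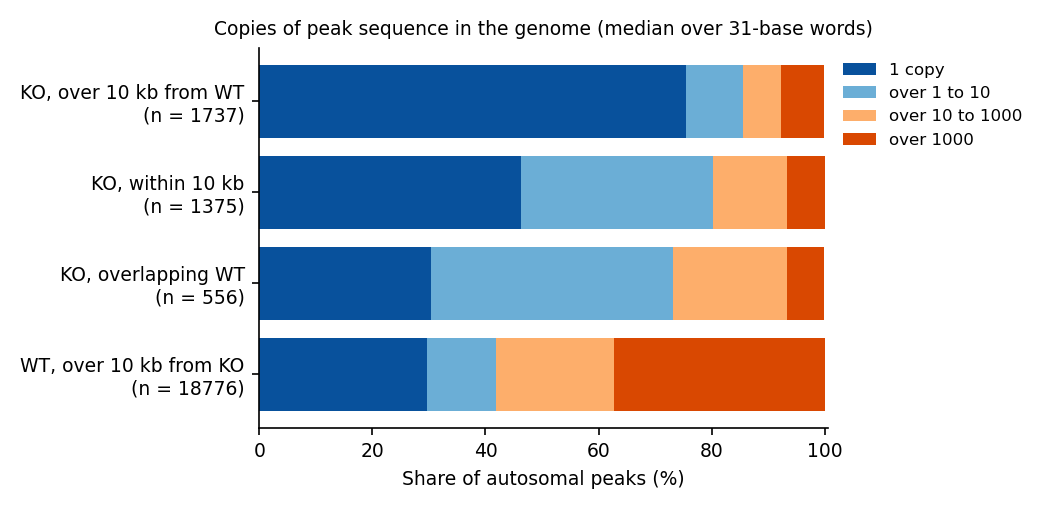
Share (%) of autosomal peaks in 4 classes of copy number, the median number of genomic occurrences of the 31-mers of a peak, for the 3 classes of KO peak and for WT peaks over 10 kb from any KO peak. Single-copy sequence makes up 75.5% of the distant KO peaks and 29.7% of the distant WT peaks, while over 1000 copies make up 7.71% and 37.2%.

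The distant KO peaks lay in AT-rich surroundings. GC content over 500 bp around the centre had a median of 36.6% (95% interval of the median 36.4 to 36.8). All autosomal windows of 500 bp had a median of 41.8%, with 37.4% at the lower quartile, distant WT peaks had 38%, and KO peaks within 10 kb had 37.6%. A GC content under 30% was found at 159 distant KO peaks, 9.15% (7.89 to 10.6), against 5.31% (4.24 to 6.62) of KO peaks within 10 kb and 1.26% (1.11 to 1.43) of distant WT peaks. Assembly gaps, which flank centromeres, telomeres and large duplications, lay within 10 kb of 7 distant KO peaks, 0.403% (0.195 to 0.830), but of 81 overlapping KO peaks, 14.6% (11.9 to 17.7). The WT list had the same order, with 85 of 18776 distant WT peaks, 0.453% (0.366 to 0.559), and 13.6% (10.9 to 16.9) of overlapping WT peaks.

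Runs of alternating A and T, called AT runs here where at least 20 bp lay within the peak, were found mainly at tall distant KO peaks. Such dinucleotide repeats are microsatellites, short tandem repeats scattered through the genome. Of the 1737 distant KO peaks, 62 held an AT run, 3.57% (2.79 to 4.55), on 18 chromosomes. All autosomal windows of the median width of 77 bp held one in 0.109%. KO peaks within 10 kb of a WT peak held one in 7 of 1375 cases, 0.509% (0.247 to 1.05), and overlapping KO peaks in 0 of 556, which allows a share of up to 0.540%. In the WT list 0 of 21957 autosomal peaks held an AT run, which allows a share of up to 0.0137%. Overlapping KO peaks lie on WT peaks, so their 0, at any pileup, is not independent of the 0 in the WT list. Tandem runs of all units with a period of 1 to 6 bases were found in 66 distant KO peaks, 3.80% (3 to 4.81), so that 4 had another unit. The 143 WT peaks with a tandem run, 0.651% (0.553 to 0.767), had other units, with runs of A the most frequent. All windows of 77 bp held a tandem run of any unit in 2.67%.

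Within the 62 distant KO peaks the AT runs were 28 to 59 bp long, with a median of 44 bp. At these 62 peaks the pileup had a median of 21.5 and quartiles of 16 and 28.8 fragments, against a median of 9 and an upper quartile of 10 at the 1675 without. The score had a median of 7.77 against 2.96. Of the 94 distant KO peaks with a pileup of at least 13, 55 held an AT run, 58.5% (48.4 to 67.9), whereas of the 1093 with a pileup of 9 0 did, which allows a share of up to 0.274%. Among KO peaks within 10 kb with a pileup of at least 13 the share was 6 of 361, 1.66% (0.764 to 3.58), and among overlapping ones 0 of 333, which allows up to 0.901%. In both classes the share was higher at a pileup of at least 13 than at 9 to 12, where it was 0.426% (0.207 to 0.877) of distant KO peaks and 0.0986% (0.0174 to 0.556) of those within 10 kb. Of the 10 highest-scoring distant KO peaks 8 held an AT run, of the 50 highest 39 did, and of the 100 highest 46 did.

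**Figure D3:**
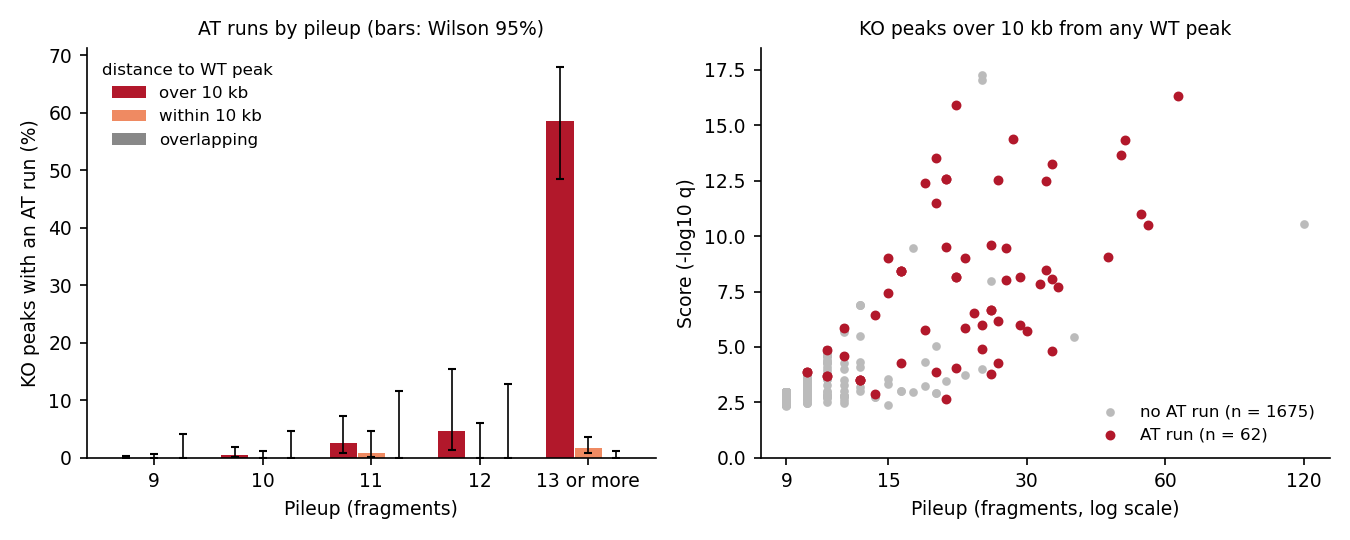
Left, share (%) of KO peaks holding an AT run of at least 20 bp by pileup (fragments) and by distance to a WT peak, with Wilson 95% intervals. Right, score (−log10 q) against pileup (fragments, log scale) for each distant KO peak, with the 62 that hold an AT run in red and the 1675 others in grey. AT runs fill 58.5% of the tall distant KO peaks and are absent at a pileup of 9.

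The local background at the peaks with AT runs was raised, as it was at other tall distant KO peaks. Its median was 3.14 fragments with quartiles of 1.40 and 5.59, against 1.07 and an upper quartile of 1.09 at the distant KO peaks without. At the 39 distant KO peaks with a pileup of at least 13 and no AT run it was 2.86 with quartiles of 1.82 and 4.08. The fold enrichment of the peaks with AT runs had a median of 4.70, against 4.84 at all those without and 4.22 at the same 39 tall peaks. The median score was 7.77 at the peaks with AT runs and 4.01 at those 39. These sets were not matched for height. The median pileup was 21.5 at the peaks with AT runs, of which 7 had a pileup of 9 to 12, and 16 at those 39. The sources used here do not say whether the input library served as the control of the peak caller, and the part of background or of read placement in these peaks was not tested. The 31-mers of these peaks occurred a median of 612 times in the genome, from 1 to 342645 times, and 15 of the 62 peaks counted as single-copy. GC content around them had a median of 30.1%. Their median distance to a protein-coding transcript start was 218903 bp, and 17 of them, 27.4%, lay in a gene.

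Only a small share of the AT runs in the genome carried a peak, and the share rose with the length of the run. The autosomes held 36160 AT runs of at least 20 bp, of which 69 touched a distant KO peak, 0.191% (0.151 to 0.241), and 0 touched a WT peak, which allows up to 0.00830%. Of 13032 runs of 20 to 29 bp 3 touched a distant KO peak, 0.0230% (0.00783 to 0.0677), of 8318 runs of 30 to 39 bp 9 did, 0.108% (0.0569 to 0.206), of 9638 runs of 40 to 49 bp 29 did, 0.301% (0.210 to 0.432), and of 5172 runs of 50 bp or more 28 did, 0.541% (0.375 to 0.781). The intervals of the shortest and the longest class do not overlap. Long runs hold more places that a peak can touch, which this count does not correct.

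Most of the other multi-copy distant KO peaks shared sequence with WT peaks. Linking distant KO peaks through any shared 31-mer put 245 of them into 37 families and left 1492 alone. The largest family, 63 peaks on 18 chromosomes, held all 62 peaks with AT runs, and 1 of its peaks shared a 31-mer with a WT peak. The next largest had 25 peaks on 12 chromosomes, 14 on 10 and 12 on 10, with a median of 358, 3016 and 150 genomic copies, and in each of them every peak shared a 31-mer with a WT peak. Of the 378 multi-copy distant KO peaks without an AT run, 269 shared a 31-mer with a WT peak, 71.2%, and 109 did not. Of the 105 with over 1000 copies all 105 did, and of the 1312 single-copy ones 59. The WT list itself held 7428 autosomal peaks with over 1000 copies, so sharing by high-copy sequence says little about the distant KO peaks. Over all distant KO peaks the share was 18.9% (17.2 to 20.9), below the 40.9% (38.4 to 43.6) of KO peaks within 10 kb. Of KO peaks overlapping a WT peak 98.4% shared a 31-mer, by their position. Of the 36 other families, 33 had a median pileup of 9 to 10 fragments. The 3 others, pairs of peaks, had 11, 12 and 28.5. No repeat annotation was used, so these families are not given repeat names.

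Few distant KO peaks lay in genes. Gene bodies overlapped 482 of them, 27.7% (25.7 to 29.9), whereas 42.0% of autosomal bases are in gene bodies. The share was 29.5% (27.2 to 32) for KO peaks within 10 kb, an interval that overlaps that of the distant ones, 35.3% (31.4 to 39.3) for overlapping KO peaks and 23.4% (22.8 to 24.0) for distant WT peaks. Exons overlapped 36 distant KO peaks, 2.07% (1.5 to 2.86), against 3.45% of autosomal bases and 7.19% (5.33 to 9.65) of overlapping KO peaks. Promoters, from 2 kb upstream to 0.5 kb downstream of a transcript start, overlapped 67, or 3.86% (3.05 to 4.87), against 5.14% of autosomal bases, 7.13% (5.88 to 8.61) of KO peaks within 10 kb and 12.4% (9.92 to 15.4) of overlapping KO peaks. Distant WT peaks had 2.30% (2.09 to 2.52) in exons and 3.30% (3.05 to 3.56) at promoters, intervals that overlap those of the distant KO peaks. The median distance to a protein-coding transcript start was 82254 bp, compared with 32739 bp for KO peaks within 10 kb and 53764 bp for distant WT peaks. Distant KO peaks were thus mostly intergenic, introns held most of the rest, and promoters were touched less often than by the KO peaks near WT peaks.

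The share in gene bodies rose with distance from WT peaks. It was 24.8% (22.3 to 27.6) for the 986 peaks at 10 to 50 kb, 28.9% (24.6 to 33.6) for the 387 at 50 to 100 kb and 34.4% (29.6 to 39.4) for the 358 at 100 to 500 kb, and 6 lay farther. WT peaks were sparser in protein-coding genes of every length class than over all autosomal bases. No share for other positions at these distances was computed, so the rise cannot be read as a trait of the distant KO peaks. Over the same classes the share with an AT run was 2.74% (1.89 to 3.95), 4.39% (2.76 to 6.92) and 5.03% (3.20 to 7.81), with overlapping intervals. Single-copy shares, 74.1%, 78.6% and 76.3%, and promoter shares, 4.26%, 3.10% and 3.63%, had overlapping intervals as well. The median pileup was 9, the lowest called, in each class. The share at the lowest background was 66.6% (63.6 to 69.5), 76.2% (71.7 to 80.2) and 74.9% (70.1 to 79.1).

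Per gene and per Mb, very long genes carried more distant KO peaks than short ones. Of the 188 protein-coding autosomal genes over 500 kb, 73 held at least 1, 38.8% (32.2 to 46.0), compared with 67 of 16795 genes under 50 kb, 0.399% (0.314 to 0.506). Per length the density was 0.930 per Mb (exact Poisson 95% interval 0.787 to 1.09, counting error only) in genes over 500 kb and 0.301 per Mb (0.235 to 0.379) in genes under 50 kb. All KO peaks together had no such order over all autosomes, with 1.09 per Mb (0.935 to 1.26) in the longest and 1.20 (1.06 to 1.35) in the shortest genes. The share of KO peaks that lay far from WT peaks was 85.3% (79.3 to 89.8) in the longest and 25.1% (20.4 to 30.4) in the shortest genes. That distance is the rule that chose the peaks, and no such share was computed for other positions in these genes. WT peaks numbered 5.86 per Mb (5.56 to 6.18) in genes under 50 kb, 4.36 (4.15 to 4.59) at 50 to 200 kb, 4.87 (4.58 to 5.17) at 200 to 500 kb and 4.77 (4.44 to 5.11) over 500 kb, against 9.17 (9.05 to 9.29) over all autosomal bases. Over all autosomal bases distant KO peaks had 0.726 per Mb (0.692 to 0.761). On the 8 chromosomes where most WT peaks lay over a raised background (4, 5, 8, 10, 11, 15, 17 and 19), the longest genes had 1.75 distant KO peaks per Mb (1.44 to 2.12) and the shortest 0.416 (0.301 to 0.560). On the other 11 autosomes these values were 0.434 (0.316 to 0.583) and 0.211 (0.140 to 0.305), and all bases there had 0.443 (0.409 to 0.478), so the longest genes did not exceed all bases on those 11. All KO peaks had 2.03 per Mb (1.69 to 2.42) in the longest and 1.60 (1.37 to 1.87) in the shortest genes on the 8 chromosomes. On the other 11 the order was opposite, with 0.523 (0.392 to 0.684) and 0.882 (0.729 to 1.06).

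**Figure D4:**
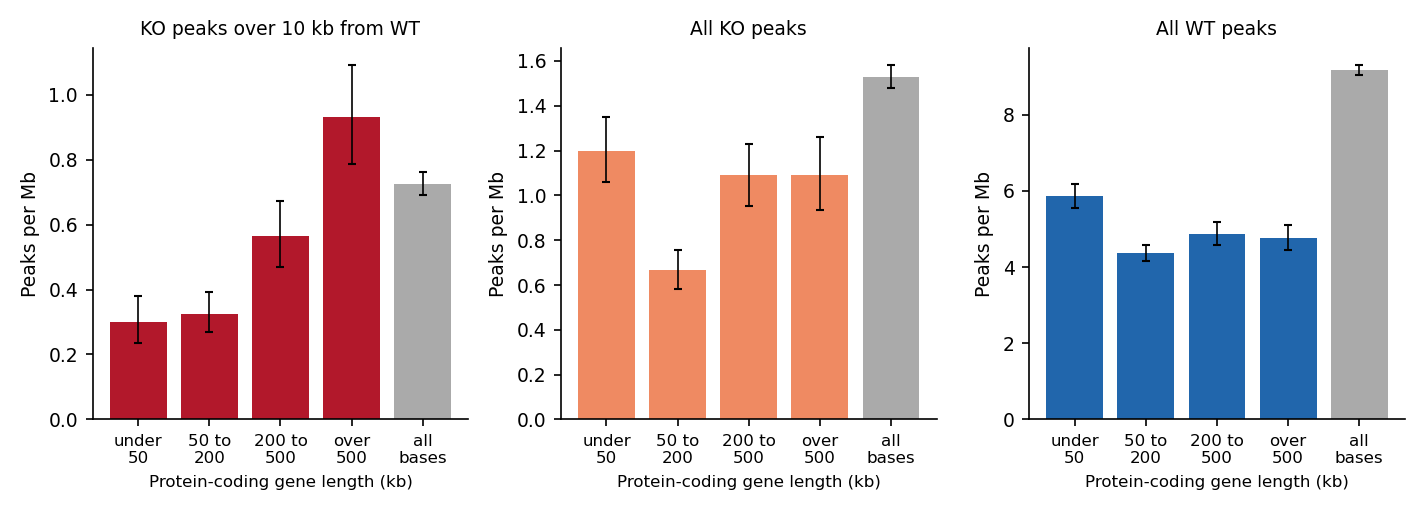
Peaks per Mb in protein-coding genes by gene length (kb) and over all autosomal bases (grey), for distant KO peaks, all autosomal KO peaks and all autosomal WT peaks, with exact Poisson 95% intervals. Distant KO peaks rise from 0.301 per Mb in genes under 50 kb to 0.930 in genes over 500 kb, while all KO peaks stand at 1.20 and 1.09.

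Of the 15 genes named for holding most distant KO peaks, 11 were over 500 kb long. Of the 326 protein-coding genes that overlapped a distant KO peak, 84 overlapped at least 2 and 29 at least 3. Sgcz, which encodes zeta-sarcoglycan of the muscle membrane complex, and Pcdh15, a protocadherin of the tip links of hair cells, each held 7. They are 1139 and 1550 kb long, and their peaks had pileups of 9 to 11 and 9 to 12. Grik2, a kainate receptor subunit, and Galntl6 held 6 each. Sgcd (delta-sarcoglycan), March1 (a membrane-bound ubiquitin ligase), Lrp1b (an LDL receptor relative), Csmd1, Hpse2 (a heparanase relative), Gm2792, Rims2 (an organiser of presynaptic release sites) and Prkg1 (a cGMP-dependent kinase) held 4 each. Rspo3, Abhd3 and Dcc, the netrin receptor gene, held 3 each. None of the peaks in these 15 genes held an AT run, and their scores were at most 5.78. The list was ordered by the number of peaks, which grows with gene length.

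Rspo3, which encodes an R-spondin that strengthens Wnt signalling, is 82.8 kb long and overlapped 0 WT peaks and 0 other KO peaks. Its 3 distant KO peaks lay in introns, on chr10:29193056-29193135, chr10:29197285-29197367 and chr10:29244100-29244179, with pileups of 11, 11 and 10 over the lowest background, and with single-copy sequence. Their distances to the nearest WT peak were 82.0, 86.3 and 133 kb. This gene was singled out after its values were seen.

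At promoters of protein-coding genes there were 54 distant KO peaks, 3.11% (2.39 to 4.03), against 3.90% of autosomal bases. The 10 with the highest scores had pileups of only 10 or 11 and scores of 3.36 to 4.86, and none of them held an AT run. The genes were Gm14851, the olfactory receptor genes Olfr987 and Olfr1469, Dlgap1 (a postsynaptic scaffold), Fmn2 (an actin nucleator), Vmn2r84 (a vomeronasal receptor), Kit (the stem cell factor receptor), Chi3l3 (a chitinase-like protein of macrophages), Pdc (phosducin of photoreceptors) and Ces2c (a carboxylesterase). The peak at Kit, on chr5:76006447-76006517, overlapped the gene itself, with a pileup of 10 and single-copy sequence, 35.9 kb from the nearest WT peak. The peak at Gm14851 had 6 copies and lay 10.3 kb from a WT peak, just beyond the limit. The peak at Ces2c also overlapped an exon of the pseudogene Matr3-ps2.

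Gene lists were asked about next, by the number of their genes whose body or promoter overlapped a distant KO peak. Over all 21418 autosomal protein-coding genes this number was 357, 1.67% (1.5 to 1.85). One list came from the RNA data of the same KO cells and holds genes raised after Setdb1 deletion, many of them interferon-response genes. It was chosen on these cells and is not independent of them. Of its 228 genes found on autosomes 1 overlapped a distant KO peak, 0.439% (0.0775 to 2.44). The gene was Gbp6, an interferon-induced guanylate-binding protein gene, with a peak on chr5:105711273-105711353 in an intron, at the lowest pileup and background and at a score of 2.96. No promoter of the list was touched. Of 56 imprinted genes 2 overlapped one, Sfmbt2 and Grb10, 3.57% (0.985 to 12.1), each with a pileup of 9. They are 225 and 108 kb long, against a median of 26.1 kb for the list. Of 26 genes of the H3K9 methylation pathway, such as methyltransferases, demethylases and their partners, 0 did, which allows a share of up to 11.5%, and of 25 fibroblast marker genes 0 did, which allows up to 12%. Of 27 marker genes of other lineages 3 did, 11.1% (3.85 to 28.1). Among them were the neuronal genes Syt1 and Snap25. Syt1, which encodes a calcium sensor of synaptic vesicles, held 2 peaks with pileups of 9 to 10. Snap25, which encodes a part of the vesicle fusion machinery, held 1 peak with a pileup of 9. They are 513 and 69.0 kb long, against a median of 15.1 kb for the list. Longer genes held a distant KO peak more often, and the shares of these lists are not corrected for gene length.

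Gene families were counted in the same way. Of 367 Zfp genes, which encode zinc-finger proteins, 76 overlapped a WT peak, 20.7% (16.9 to 25.1), against 1944 of all protein-coding genes, 9.08% (8.70 to 9.47). Of the Zfp genes 1 overlapped a distant KO peak, 0.272% (0.0481 to 1.53). The rule drops KO peaks within 10 kb of a WT peak, and WT peaks were frequent in Zfp genes. All KO peaks in Zfp genes were not counted here, so this low share and the density below cannot be read as a trait of Zfp genes. Of 435 vomeronasal receptor (Vmn) genes 13 did, 2.99% (1.75 to 5.05), and of 1243 olfactory receptor (Olfr) genes 8 did, 0.644% (0.326 to 1.26), 7 of them at the promoter. Of 36 protocadherin (Pcdh) genes 2 did. A WT peak overlapped 25 Vmn, 5 Olfr and 9 Pcdh genes. Gene length differs between these families, with a median of 1.02 kb for Vmn, 0.957 kb for Olfr, 3.71 kb for Pcdh and 14.2 kb for Zfp genes, against 15.5 kb for all protein-coding genes. The gene bodies held 10 overlaps with distant KO peaks in Vmn genes, 2.27 per Mb (1.09 to 4.17), 8 in Pcdh genes, 2.25 (0.970 to 4.43), 2 in Olfr genes, 0.956 (0.116 to 3.45), and 1 in Zfp genes, 0.0982 (0.00249 to 0.547), against 0.475 (0.433 to 0.520) in all protein-coding genes. Of the 8 overlaps in Pcdh genes 7 were in Pcdh15 alone, which is 1550 kb long, so that density mainly describes 1 gene. With so few peaks, the intervals of Olfr and Pcdh genes are wide.

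The distant KO peaks were spread unevenly over chromosomes. Density was highest on chromosomes 8, 19 and 17, at 2.04, 2.00 and 1.68 per Mb, and lowest on chromosomes 13, 12 and 4, at 0.206, 0.221 and 0.224 per Mb. Chromosome 8 alone held 255 of them, 14.7%, and 618 of the 3668 autosomal KO peaks, 16.8%, so that 41.3% (37.4 to 45.2) of its KO peaks were distant. WT peaks varied less, with densities between 6.33 (chromosome 16) and 14.3 per Mb (chromosome 17). Chromosomes rich in distant KO peaks were mostly those where WT peaks lay over a raised local background. On 8 chromosomes (4, 5, 8, 10, 11, 15, 17 and 19) most WT peaks, 53.9% to 71.5%, had a background above the lowest value of the WT list, and on the other 11 it was 40.1% to 48.6%. The 8 chromosomes held 38.5% of the sequenced bases and 62.5% of the distant KO peaks, but also 64% of all autosomal KO peaks and 47.6% of the WT peaks. The share of KO peaks that were distant was 46.2% (44.2 to 48.2) there and 49.4% (46.7 to 52.1) on the other 11, so the concentration was that of the KO list as a whole. Across the 19 autosomes the density of distant KO peaks and this percentage had a Pearson r of 0.900 and a Spearman rho of 0.807. With WT peaks per Mb they were 0.849 and 0.705, and with the median WT background 0.750 and 0.668. All are descriptions of 19 points that share the same 2 libraries. Chromosome 4 did not follow, with 56.3% and 0.224 per Mb.

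The peaks with AT runs were counted apart. Without an AT run there were 1060 distant KO peaks on the 8 chromosomes, 1.15 per Mb (1.08 to 1.22), and 615 on the other 11, 0.417 per Mb (0.385 to 0.452). With an AT run there were 25 and 37, at 0.0272 (0.0176 to 0.0401) and 0.0251 (0.0177 to 0.0346) per Mb, intervals that overlap almost whole. Chromosome 19, with 116 distant KO peaks, had none with an AT run. The split into 8 and 11 chromosomes was made after the data were seen. What raised the background on the 8 chromosomes was not tested.

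**Figure D5:**
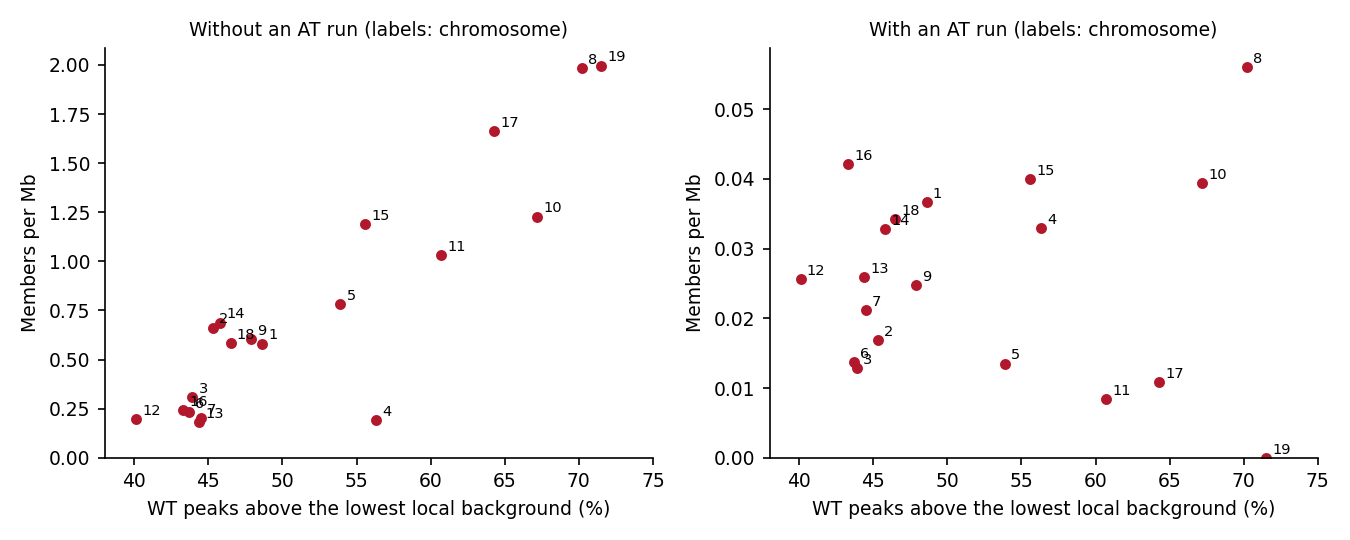
Distant KO peaks per Mb of sequenced bases on each autosome, without (left) and with (right) an AT run, against the percentage of WT peaks of that chromosome whose local background was above the lowest value of the list. Points are chromosomes, labelled by number. The density without AT runs is highest on chromosomes 8, 19 and 17, while the density with AT runs shows no such order and is 0 on chromosome 19.

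Most distant KO peaks had no other distant KO peak within 10 kb. Another one lay within 10 kb of 173 of them, 9.96%, and within 100 kb of 602, 34.7%. Their density was 0.726 per Mb over all autosomal bases. No such share was computed for evenly spread positions, so these values alone do not show whether the peaks cluster. Joined at 10 kb, the distant KO peaks formed 1564 single peaks, 73 pairs and 9 groups of 3. In windows of 1 Mb, 1567 held none and 506 held 1. The densest window, chr8:104000001-105000000, held 10 of its 12 KO peaks as distant ones, beside 9 WT peaks, and overlapped 0 protein-coding genes. Of its 10 distant KO peaks 8 were single-copy and 1 held an AT run, and their pileups ran from 9 to 33. The next were chr17:65000001-66000000 and chr17:20000001-21000000 with 9 each. The latter overlaps a cluster of vomeronasal and formyl peptide receptor genes, such as Vmn1r224, Vmn2r104 and Fpr-rs3, and 2 of its 9 distant KO peaks lay in a gene.

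With 1 library per group there is no replicate check, and the intervals given cover counting error only. A KO peak counts as distant also where H3K9me3 in WT cells stayed just under the calling limit, and at a median pileup of 9 fragments the lists cannot tell these cases apart.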

How the data were processed

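The authors prepared native chromatin with micrococcal nuclease, aligned the single-end reads with Bowtie2 2.2.3 against mm9, put each multi-hit read at 1 valid site at random and removed duplicates with Picard. The caller named in the file headers is MACS 2.1.0.20140616, run on 1 library per list with options not given in the sources used here. The deposited pileup is a signal, the fragment coverage of a peak. Fold enrichment, as deposited, is a ratio: (pileup + 1) over (local background + 1). For significance the authors gave −log10 of the p-value and −log10 of the q-value, and the latter is called the score. Read totals are not part of the lists, so depth is known only through these values.

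Gaps, overlaps and sequence features were computed from the lists, the NCBIM37 (mm9) genome and GENCODE M1. Local background was (pileup + 1) / fold − 1, and a Poisson tail from it differed from the deposited −log10 p of these peaks by at most 0.0000565. Copy number was the median count of the 31-mers of a peak on both strands. Tandem runs had a period of 1 to 6 bases and at least 20 bp, and GC content was taken over 500 bp. Interval and word-counting code was tested on simulated data. Shares carry Wilson 95% intervals, densities exact Poisson ones. With 1 library per group no p-value was computed.

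The regions, gene lists and comparisons were chosen with earlier results of these data known. Peaks were named by a rule: the 5 highest scores, the 3 farthest from WT, the 3 on each side of the limit and the 10 highest scores at protein-coding promoters. Named genes were those with at least 3 of the peaks, at most 15, and the genes of a list that overlapped one, of which 1 is not reported here, and windows were the 3 of 1 Mb with most peaks. Gene lists were genes raised in the study, imprinted genes, H3K9 pathway genes, fibroblast and other lineage markers, and genes named Zfp, Pcdh, Olfr or Vmn. Alternatives changed the distance limit, the peak threshold, merging, the chromosomes and the width of each feature. The deposited list of neither group has a summit column. The tools were Python 3.11.15, numba 0.67.0, numpy 2.4.6, scipy 1.17.1, matplotlib 3.10.9 and pandas 2.3.3.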

Additional observations from a re-analysis of the deposited data

How the results depend on the processing

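A distance limit of 5 kb took in 55.1% of the autosomal KO peaks, and a limit of 50 kb gave 751 peaks, 20.5%, with 31.6% in gene bodies, 4.93% with a tandem run and 4.66% with an AT run. Only KO peaks at or above the median score gave 50.8%, and merging KO peaks within 1 kb gave 52.3%. A pileup of at least 15 changed most values, leaving 74 peaks, 10.7% of such KO peaks, of which 36.5% lay in gene bodies, 2.70% at promoters, 32.4% in single-copy sequence, 68.9% held a tandem run and 67.6% an AT run, at a median GC of 31.8%. Without the 8 chromosomes of raised WT background the values were 5.21% at promoters, 68.7% single-copy, 6.13% with a tandem run and 5.67% with an AT run. Promoters from 5 kb upstream gave 7.14%, by their construction, words of 25 bases gave 71.2% single-copy, and GC of the peak itself was 35.9%. Of 71 recomputed values, 48 stayed within the interval of the first value, or within 1.5 times for a number of peaks, and the cause of the other shifts was not tested. Distance between midpoints, leaving out peaks with AT runs or the 8 chromosomes, and all values for AT runs were chosen after seeing the data. Distance between summits was not run because the lists give no summit. No paired analysis was possible because WT and KO had 1 library apiece. Pileups close to the lowest number called limit all of these values, and nothing here separates a gain of H3K9me3 in KO from a peak that WT missed.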
